A study of Homo sapiens with 27 samples.

Results

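The SR splicing factors described here are SRSF1 to SRSF7 and SRSF9 to SRSF11, taken as every transcript counted in the RM82 libraries whose GENCODE gene symbol is one of these 10 names. This rule found 95 transcripts among the 93530 transcript identifiers listed in the libraries, of 120 that GENCODE release 44 (genome build GRCh38) annotates for the 10 genes. Of the 95, 36 were annotated as protein coding, 22 as retained-intron transcripts, 21 as targets of nonsense-mediated decay (NMD) and 16 as other noncoding kinds.

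RM82, an established line, comes from an Ewing sarcoma. Cells were kept for 24 h with SGC-CLK-1, an inhibitor of the CDC-like kinases (CLKs), or with its solvent DMSO, and 3 libraries of each group were read as full-length cDNA on an ONT PromethION. Each molecule was primed at its poly(A) tail and tagged with a unique molecular identifier (UMI) built from homotrimer blocks, and the values are UMI counts per transcript. The treatment label of the inhibitor libraries names CLK1, and the study's methods name the compound. The labels do not say whether the 3 libraries came from separate cultures. The study states in general that its experiments were repeated independently, without tying this to single libraries, so p-values measure the spread between these libraries, whatever its source. No genotype or second treatment separates the groups. The libraries labelled SGC-CLK-1, called inhibitor libraries below, held 666702, 362826 and 373004 counts for replicates 1, 2 and 3, and the DMSO libraries 416352, 523456 and 372876. Every series of values below keeps this order, inhibitor libraries first.

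Which group is higher rests on these labels alone. The transcript ENST00000645766, which the study draws as FRG2 for both groups, had counts of 64, 44 and 60 in the inhibitor libraries and of 96, 88 and 95 in the DMSO libraries. In the study's drawing the groups stand in the opposite order, so the direction of each difference below is that of the deposited labels.

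The cell type was checked on marker genes. Of 5 Ewing sarcoma markers 4 were counted, at a summed 198, 218 and 223 CPM (counts scaled to a common library total) against 300.2, 206 and 279, of which the surface protein CD99 gave 111, 93.7 and 115 CPM against 159, 101 and 174. NKX2-2, a defining transcription factor of Ewing sarcoma, was at 0 in all 6 libraries. Of 7 plasma cell markers SDC1, IRF4, TNFRSF17 and MZB1 were at 0 as well, CD38 stood at 70.6 ± 5.73 CPM (SD, n = 3) against 75.4 ± 14.8, POU2AF1 at 6.10 ± 2.91 against 5.56 ± 2.21, and PRDM1 was counted in SGC-CLK-1 replicate 3 only. The T cell gene CD3E was also at 0.

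SR proteins bind exonic sequences of a nascent transcript through RNA recognition motifs and recruit the splicing machinery through a tail rich in arginine and serine. SR protein kinases in the cytoplasm and CLKs in the nucleus phosphorylate that tail, which sets where the proteins reside and how they act on splice sites. Many SR genes also hold a poison exon or a retainable intron: its inclusion brings an early stop codon, the transcript is degraded or kept in the nucleus, and the gene thereby limits its own protein.

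The 10 genes together took 0.496%, 0.491% and 0.464% of all counts in the inhibitor libraries and 0.617%, 0.553% and 0.558% in the DMSO libraries. Every inhibitor library lay below every DMSO library. Without SRSF11 the shares were 0.390%, 0.378% and 0.376% against 0.442%, 0.421% and 0.330%, and the groups overlapped. Without SRSF11 and SRSF6 they were 0.223%, 0.202% and 0.218% against 0.219%, 0.179% and 0.200%, with means of 0.214% ± 0.0110 and 0.199% ± 0.0198 (SD, n = 3), and overlapped as well. In bulk libraries fewer cells of a type and less RNA per cell cannot be told apart. The mitochondrial share of counts was also lower in the inhibitor libraries, at 0.723%, 0.534% and 0.517% against 0.883%, 0.757% and 0.858%, and its part in the SR values was not tested.

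At the level of whole genes, with all transcripts summed, SRSF11 and SRSF3 were lower and SRSF1 was higher in all 3 inhibitor libraries than in any DMSO library. None of the 10 genes passed an adjusted p of 0.05 in edgeR's quasi-likelihood test, where 0.236% of 6344 genes did. DESeq2 called 1 of the 10, SRSF11, beside 107 of all 6344 genes. At an unadjusted p under 0.05 edgeR gave 3 of 10, beside 13.9% of all genes. Groups that did not overlap were found for the same 3 genes, beside 19.9% of all genes. The median log2 fold change of the 10 genes was -0.026, with 5 higher and 5 lower, and that of all genes tested was -0.00118.

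**Figure D1:**
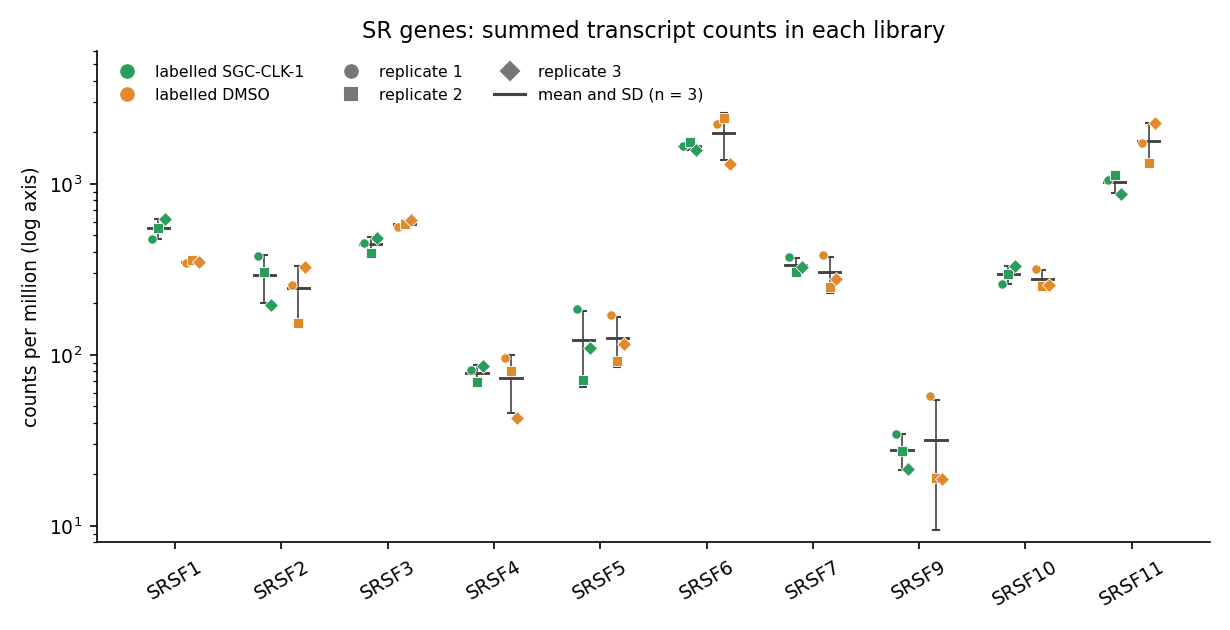
Summed transcript counts of each SR gene per library, in CPM on a log axis, with the 3 replicates of each group as points and the mean and SD as bars. The inhibitor libraries lie apart from the DMSO libraries for SRSF1 (higher), SRSF3 and SRSF11 (lower) and overlap them for the other 7 genes.

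SRSF11, an SR-related protein that also interacts with the U2AF splice site recognition factor, showed the largest difference of the 10 genes. Its gene lies on chromosome 1 from 70205682 to 70253052 (plus strand). The gene sum was 1054, 1127 and 874 CPM in the inhibitor libraries and 1744, 1326 and 2282 CPM in the DMSO libraries. The spread was much wider among the DMSO libraries, and the groups did not overlap. The log2 fold change was -0.89 (standard error 0.22, edgeR adjusted p = 0.087), and DESeq2 gave -0.89 with an adjusted p = 0.0084. With each library left out in turn it stayed between -1.07 and -0.64, and only leaving out DMSO replicate 2 took edgeR's adjusted p under 0.05 (0.045).

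All 7 SRSF11 transcripts that were abundant enough to test had negative log2 fold changes, and 4 passed an adjusted p of 0.05: the coding transcripts SRSF11-202, SRSF11-203 and SRSF11-201 and the retained-intron transcript SRSF11-214. SRSF11-202 (ENST00000370950) had counts of 167, 94 and 78 against 180, 164 and 202, which is 251, 259 and 209 CPM against 432, 313 and 542 CPM. Its log2 fold change was -0.82 (standard error 0.21, edgeR adjusted p = 0.025). SRSF11-214 (ENST00000484162) had 224, 237 and 180 CPM against 339, 283 and 507 CPM, a log2 fold change of -0.80 (standard error 0.22, edgeR adjusted p = 0.034). The coding and the retained-intron transcript therefore differed by nearly the same factor, and DMSO replicate 3 was the highest library for both.

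The transcripts SRSF11-203 (ENST00000370951, log2 fold change -0.83, edgeR adjusted p = 0.028) and SRSF11-201 (ENST00000370949, -0.84, edgeR adjusted p = 0.030) had values of the same order. SRSF11-202 and SRSF11-203 use acceptors 3 bases apart at their last exon, so that 1 codon is gained or lost, as the junctions show (last 15 bases of one exon, then the next exon with its first 3 bases in capitals, chromosome 1, plus strand, exon start at 70250608 or 70250611):
SRSF11-202: gataaagatgtaaaaCAGgttacacgggat
SRSF11-203: gataaagatgtaaaaGTTacacgggattat

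SRSF11-214 starts with an exon of its own, from 70230278 to 70231975, whose 1698 bases lie outside the exons of SRSF11-202, and then joins the exon that follows in the coding transcripts at 70232268. The joins into this shared exon are printed because beyond them SRSF11-214 runs within the sequence of SRSF11-202 (first 3 bases of the shared exon in capitals):
SRSF11-214: aaaaatcgagtacagGAGttattcctgatg
SRSF11-202: taccatatgcagaagGAGttattcctgatg

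From the join on, with the last bases before it, SRSF11-214 shared an unbroken stretch of 2312 bases with SRSF11-202, which is 57.7% of its length. Its counts of 149, 86 and 67 against 141, 148 and 189 differed from those of SRSF11-201 (147, 80 and 61 against 142, 139 and 184) by at most 8.96% in any library. The stated mapping settings allow secondary alignments. Whether a molecule read over the shared exons was counted on several transcripts is not given in the sources used here, so the 4 SRSF11 calls cannot be taken as 4 independent measurements. With the most abundant transcript of each gene in place of the gene sum, an alternative chosen after the data were seen, SRSF11 stood at -0.85 on the log2 scale (standard error 0.20, edgeR adjusted p = 0.016).

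SRSF1, the founding member of the family and a regulator of alternative splicing and translation, was higher in the inhibitor libraries. The gene lies on chromosome 17 from 58000919 to 58007346 (minus strand). Its sum was 472, 554 and 625 CPM against 346, 359 and 349 CPM, with no overlap and little spread among the DMSO libraries. The log2 fold change was 0.57 (standard error 0.19, edgeR adjusted p = 0.19).

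The difference lay in a pair of coding transcripts. SRSF1-205 (ENST00000582730) rose, with 193, 245 and 292 CPM against 135, 145 and 123 CPM, a log2 fold change of 0.85 (standard error 0.22, edgeR adjusted p = 0.027). SRSF1-201 (ENST00000258962), which encodes the full-length protein of 248 codons, had 211, 237 and 284 CPM against 159, 176 and 139 CPM, a log2 fold change of 0.62 (standard error 0.21, edgeR adjusted p = 0.098). Both were higher in every inhibitor library, and the test of transcript usage gave no call for SRSF1. The retained-intron or NMD transcript of SRSF1 with the highest mean, SRSF1-204 (ENST00000581979), was not tested. It had counts of 9, 16 and 5 against 3, 4 and 9.

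SRSF1-205 is annotated as coding but keeps the last intron of SRSF1-201 (58005601 to 58005800). Reading on into the intron, its coding sequence ends after 201 codons. Sequence of the last coding exon, which holds the arginine and serine rich tail, follows this stop codon in SRSF1-205 and is not translated. The retained bases up to the stop codon (capitals), on the minus strand of chromosome 17 from 58005747 to 58005800, are:
SRSF1-205: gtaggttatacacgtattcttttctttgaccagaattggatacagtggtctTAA

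In the classes used here SRSF1-205 therefore counts as coding, although it carries an intron. Its counts (129, 89 and 109 against 56, 76 and 46) were within 17.4% of those of SRSF1-201 in every library, and the transcripts share a stretch of 2243 bases. A gene model that overlaps SRSF1 on the same strand by 1890 exon bases (ENSG00000266086) held 109 counts over the 6 libraries, beside which SRSF1 had between 130 and 315 in each.

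SRSF3, the smallest SR protein, which regulates its own poison exon, was lower at the gene level. Its main retained-intron transcripts had larger negative fold changes than its coding transcript, but the direct test of coding against retained-intron plus NMD counts within SRSF3 did not pass (edgeR, unadjusted p = 0.14, adjusted p = 0.99). The gene lies on chromosome 6 from 36594353 to 36605600 (plus strand). Its sum was 450.0, 391 and 485 CPM against 557, 585 and 614 CPM, without overlap, a log2 fold change of -0.48 (standard error 0.19, edgeR adjusted p = 0.27).

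SRSF3-207 (ENST00000620389), a retained-intron transcript, was lower by 1.00 on the log2 scale (standard error 0.29, edgeR adjusted p = 0.044), with 60.0, 27.6 and 48.3 CPM against 93.7, 74.5 and 121 CPM. This call was lost with DESeq2 (adjusted p = 0.094), with scaling by library size (edgeR adjusted p = 0.055) and without the filter on low counts (edgeR adjusted p = 0.11). SRSF3-205 (ENST00000614136), also a retained-intron transcript, had 61.5, 30.3 and 56.3 CPM against 98.5, 59.2 and 123 CPM, a log2 fold change of -0.84 (standard error 0.30, edgeR adjusted p = 0.11), and its groups overlapped. The coding transcript SRSF3-202 (ENST00000373715) had 289, 314 and 327 CPM against 346, 415 and 322 CPM, a log2 fold change of -0.22 (standard error 0.20, edgeR adjusted p = 0.61). SGC-CLK-1 replicate 2 was the lowest library for both retained-intron transcripts, with 10 and 11 counts.

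Both retained-intron transcripts run unspliced across the start of an SRSF3-202 exon. The kept boundary, from 36601137 to 36601166, is printed with the last 2 intron bases (ending at 36601151) in capitals, followed by the start of the exon:
SRSF3-205 and SRSF3-207: tgtttctgcttttAGatctccaagaaggag

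SRSF3-207 begins at 36599438 and so spans the poison exon that the NMD transcript SRSF3-203 (ENST00000477442) includes from 36599821 to 36600276. That exon meets a stop codon (capitals) within its first 34 bases:
SRSF3-203: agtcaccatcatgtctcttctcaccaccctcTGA

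SRSF3-203 itself, spliced on both sides of the exon, was counted 1, 2 and 2 times against 1, 4 and 3, too few to test. The other retained-intron transcripts of SRSF3, also too low to test, had 7.91 ± 2.63 CPM against 4.76 ± 2.94 (SD, n = 3) for SRSF3-201 and 9.36 ± 8.36 CPM against 9.51 ± 5.87 for SRSF3-206, so not every retained-intron transcript was lower. The longest stretch shared with SRSF3-202 was 34.5% of the length of SRSF3-205 and 35.5% of that of SRSF3-207. Between SRSF3-205 and SRSF3-207 a stretch of 818 bases is shared, and their counts differed by at most 20.5% in any library. Whether a molecule was counted on both is not given in the sources used here, so they cannot be taken as independent measurements.

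**Figure D2:**
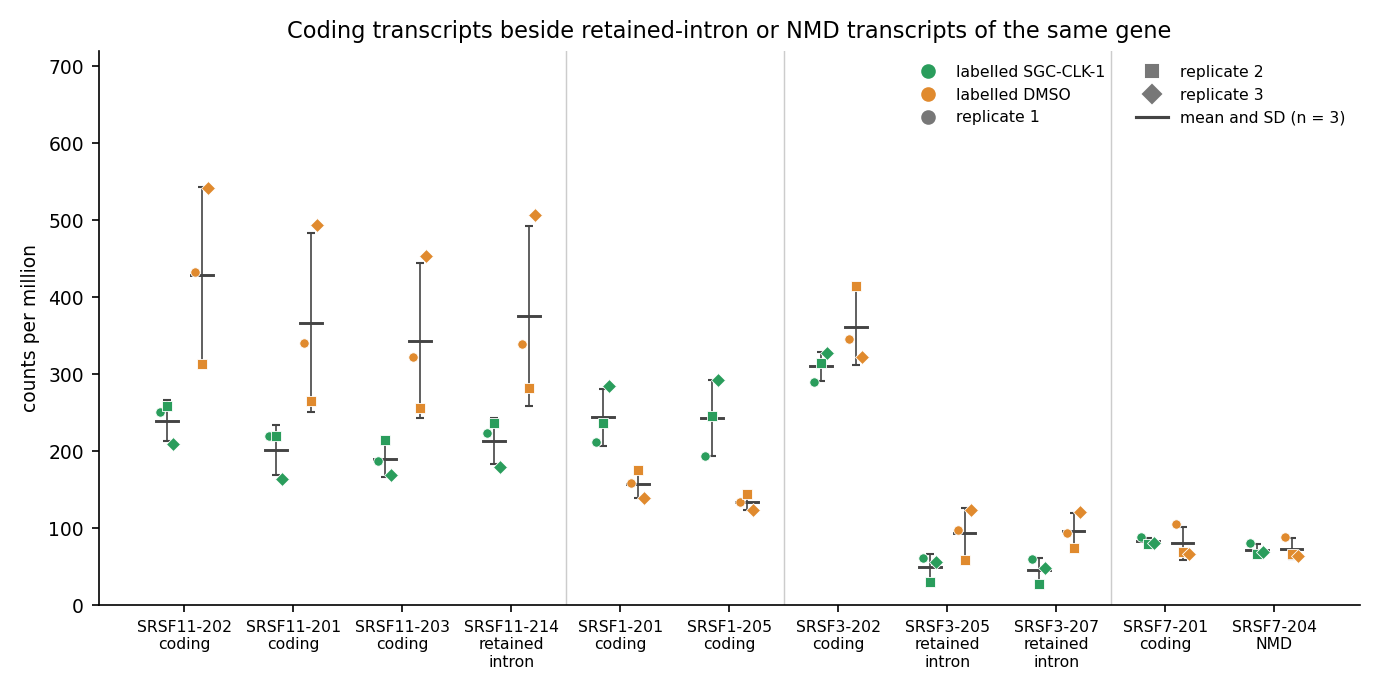
CPM of single SR transcripts in each library, coding transcripts beside retained-intron or NMD transcripts of the same gene, with points for replicates and bars for mean and SD. The 4 SRSF11 transcripts are lower together in the inhibitor libraries, both SRSF1 transcripts are higher, and SRSF3-205 and SRSF3-207 stand lower by a larger factor than SRSF3-202.

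Over all SR transcripts, 29 of 95 had enough counts to test and 6 passed an adjusted p of 0.05 in edgeR, 1 higher and 5 lower, from 3 genes. This is 20.7% of those tested, beside 3.95% of all 7840 transcripts tested. Most of the 6 calls are transcripts of SRSF11, which gave 7 of the 29 tested, and they cannot be taken as independent measurements. Groups did not overlap for 10 of the 29 (2 higher and 8 lower), beside 23.0% of all transcripts. The median log2 fold change of the 29 was -0.067 and that of all transcripts was -0.00578. The 66 SR transcripts not tested were too low for this depth. Pseudogenes named after the 10 genes held 2 counts over all libraries, beside 14362 on the SR genes.

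These calls were sensitive to single libraries. With 1 library left out the number of SR transcripts called lay between 0 and 7: it was 3 without SGC-CLK-1 replicate 1, 7 without DMSO replicate 2, and 0 without any one of the other 4. Calls over all transcripts moved too, from 310 of 7840 as reported. They were 212 of 8442 without SGC-CLK-1 replicate 1 and 363 of 8530 without DMSO replicate 2. Without SGC-CLK-1 replicate 2 or 3 they were 81 of 9406 and 130 of 9400. Without DMSO replicate 1 or 3 they were 101 of 8445 and 226 of 9403. The 6 called transcripts nevertheless kept their direction each time, with log2 fold changes between -1.03 and -0.55 for the 4 of SRSF11, between -1.30 and -0.76 for SRSF3-207 and between 0.72 and 1.01 for SRSF1-205.

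**Figure D3:**
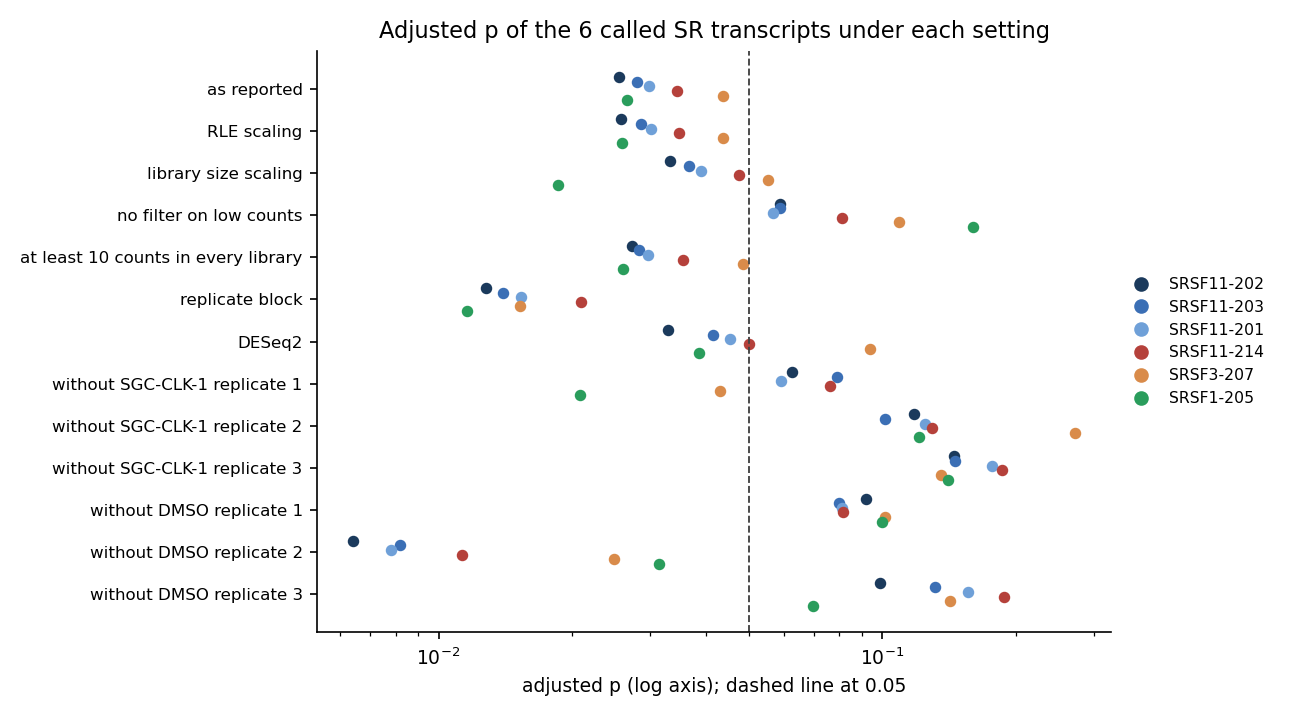
Adjusted p of the 6 called SR transcripts (points) under the reported fit and 12 other settings, on a log axis with 0.05 as a dashed line; DESeq2 values are DESeq2's own. Points lie left of the line as reported and with DMSO replicate 2 left out, and right of it without filter on low counts and when SGC-CLK-1 replicate 2 or 3, or DMSO replicate 1 or 3, is left out.

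SRSF2, SRSF5 and SRSF6, which bind exonic enhancers, did not pass. SRSF2, which is also recurrently mutated in myeloid disease, had 379, 303 and 196 CPM against 255, 153 and 327 CPM, a log2 fold change of 0.20 (standard error 0.30, edgeR adjusted p = 0.82). Its main coding transcript SRSF2-203 had a log2 fold change of 0.59 (edgeR adjusted p = 0.19) and its main retained-intron transcript SRSF2-206 one of 0.14 (adjusted p = 0.88), which turned negative when SGC-CLK-1 replicate 1 or DMSO replicate 2 was left out. MFSD11 overlaps SRSF2 on the opposite strand by 823 exon bases and had 160 counts in all. SRSF5 had 184, 71.7 and 110 CPM against 171, 91.7 and 115 CPM, a log2 fold change of -0.069 (standard error 0.34), and its main coding transcript SRSF5-203 one of 0.11. The retained-intron or NMD transcript of SRSF5 with the highest mean, SRSF5-207, was counted at most 5 times in a library.

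SRSF6, an SR protein with a pair of RNA recognition motifs, was counted almost wholly on coding transcripts. Its sum was 1669, 1761 and 1584 CPM against 2238, 2419 and 1301 CPM, and DMSO replicate 3 was the lowest of all 6 libraries while the other DMSO libraries were the highest. The log2 fold change was -0.32 (standard error 0.21, edgeR adjusted p = 0.54), and for the main coding transcript SRSF6-201 it was -0.20. Both depended on the DMSO libraries: the gene value was -0.16 without DMSO replicate 2 and -0.54 without DMSO replicate 3, and that of SRSF6-201 was -0.018 and -0.46, and -0.097 without DMSO replicate 1. Only 0.397% ± 0.125 (SD, n = 3) of SRSF6 counts fell on its NMD transcript SRSF6-202 in the inhibitor libraries and 0.456% ± 0.155 in the DMSO libraries.

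SRSF7, an SR protein with a zinc knuckle that also takes part in mRNA export, had 372, 306 and 324 CPM against 384, 248 and 276 CPM, a log2 fold change of 0.077 (standard error 0.22). Its NMD transcript SRSF7-204 (ENST00000425778), which includes a poison exon, had 54, 24 and 26 counts against 37, 35 and 24, or 72.3 ± 7.75 CPM against 73.4 ± 13.5 CPM, a log2 fold change of 0.0069 (standard error 0.26). The coding transcript SRSF7-201 had 83.0 ± 4.81 CPM against 80.5 ± 21.8 CPM, a log2 fold change of 0.065. Counts of the NMD and the coding transcript were within 17.2% of each other in every library, and 1865 bases of sequence are shared. Of the SRSF7 transcripts too low to test, the NMD transcripts SRSF7-206 (17.8 ± 3.70 CPM against 10.7 ± 3.17, SD, n = 3) and SRSF7-208 (18.3 ± 4.37 CPM against 6.64 ± 3.57) and the retained-intron transcript SRSF7-211 (6.12 ± 1.19 CPM against 1.53 ± 1.38) were higher in every inhibitor library than in any DMSO library. They rest on 40, 36 and 11 counts over all 6 libraries and were picked out after their values were seen. Of the 37 SR transcripts not tested that had at least 10 counts over all libraries, 5 had groups without overlap, beside 15.2% of 25521 such transcripts of all genes, so their number is no result about the SR genes. The other 2 were SRSF11-215 (7.41 ± 2.88 CPM against 3.77 ± 1.06, higher) and SRSF11-205 (13.3 ± 11.7 CPM against 31.9 ± 9.85, lower, 61 counts). A further stretch of SRSF7-204 outside SRSF7-201, of 54 bases from 38751362 to 38751415, is not printed. The poison exon of SRSF7-204 lies on chromosome 2 from 38748898 to 38749346 (minus strand) and reaches a stop codon (capitals) after few bases:
SRSF7-204: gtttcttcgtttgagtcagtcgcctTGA

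SRSF4, SRSF9 and SRSF10 complete the 10 genes. SRSF4 had 81.0, 68.9 and 85.8 CPM against 96.1, 80.2 and 42.9 CPM, a log2 fold change of 0.030 (standard error 0.32). Its main coding transcript SRSF4-201, with 14, 9 and 10 counts against 16, 12 and 4, was too low to test, and its retained-intron transcript SRSF4-207 had 46.9 ± 4.98 CPM against 44.9 ± 11.1. SRSF9 was counted only 7 to 24 times in a library, and its log2 fold change of -0.22 (standard error 0.52) says little at this depth; GATC overlaps it on the opposite strand by 1725 exon bases. SRSF9-201 (coding) and SRSF9-203 (retained intron), its main transcripts, were not tested. SRSF10, which acts as a splicing repressor when dephosphorylated, had 259, 298 and 330 CPM against 319, 254 and 257 CPM, a log2 fold change of 0.016 (standard error 0.21). Its main coding transcript SRSF10-214 had a log2 fold change of 0.30 (adjusted p = 0.60) and its main retained-intron transcript SRSF10-213 one of -0.29 (adjusted p = 0.75).

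A further question of the design is whether the kinase inhibitor shifted SR genes between coding and noncoding transcripts. Counts were summed by gene and class, and 18 such sums of SR genes could be tested. None passed an adjusted p of 0.05 in edgeR, where 0.979% of 6946 sums of all genes did. DESeq2 called 2, the coding and the retained-intron sum of SRSF11, beside 128 of all 6946 sums. At an unadjusted p under 0.05 edgeR gave 5, beside 14.9% of all sums. They were SRSF11 coding (log2 fold change -0.87), SRSF11 retained intron (-0.86), SRSF11 other (-0.73), SRSF3 retained intron (-0.88) and SRSF1 coding (0.64).

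**Figure D4:**
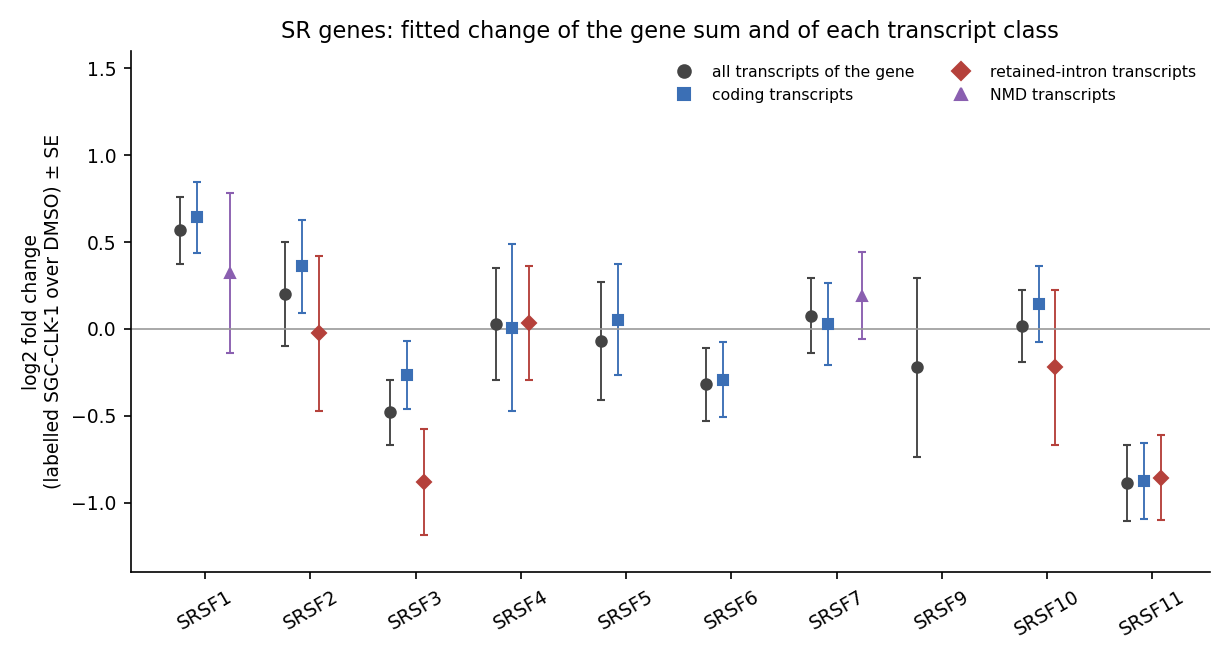
Fitted log2 fold change (labelled SGC-CLK-1 over DMSO) of each SR gene sum and of its coding, retained-intron and NMD sums where these could be tested, with standard errors as bars. For SRSF11 the coding and retained-intron values coincide near -0.87, while for SRSF3 the retained-intron sum stands at -0.88 and the coding sum at -0.27.

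The change of class within a gene was then tested directly, as the coding sum against the retained-intron plus NMD sum. None of the 7 SR genes with both passed an adjusted p of 0.05, where 0.275% of 1090 genes did (edgeR diffSpliceDGE). None of the 7 had an unadjusted p under 0.05 either, a threshold for which no share of all genes is given here. The relative log2 change of the retained-intron plus NMD counts of SRSF3 was -0.25, and it was -0.12 without SGC-CLK-1 replicate 2 and -0.11 without DMSO replicate 3. For SRSF11 this value was 0.017, for SRSF7 0.096, for SRSF4 0.015, for SRSF1 -0.20, for SRSF2 -0.19 and for SRSF10 -0.26. The usage of single transcripts within a gene gave no call among 8 SR genes either, beside 0.277% of 1805 genes past an adjusted p of 0.05. None of the 8 had an unadjusted p under 0.05, again without a share of all genes to set beside it.

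As a share of coding, retained-intron and NMD counts, the retained-intron and NMD transcripts of the 10 genes took 17.0%, 13.9% and 14.3% in the inhibitor libraries and 15.9%, 13.4% and 21.8% in the DMSO libraries. The groups overlapped, and DMSO replicate 3 stood above the rest. Over all genes the share was 18.4% ± 0.0405 (SD, n = 3) against 18.1% ± 0.128. For SRSF3 the share was 34.3%, 18.3% and 31.5% against 37.1%, 28.4% and 46.3%, a difference of -9.22 in percent (p = 0.4 by an exact permutation test, two-sided), where 3 libraries against 3 cannot go below 0.1. Leaving out SGC-CLK-1 replicate 2 gave a difference of -4.35, and leaving out DMSO replicate 3 gave -4.71. The 95% exact binomial interval of a single SRSF3 library was as wide as 12.3% to 25.7% (SGC-CLK-1 replicate 2), and such intervals cover counting error only.

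From gene to gene the mean share ran from 0.397% (SRSF6) to 67.4% (SRSF9) in the inhibitor libraries. SRSF9 had 67.4% ± 4.21 against 66.5% ± 12.0, SRSF4 63.7% ± 4.38 against 65.6% ± 10.0 and SRSF7 39.1% ± 2.31 against 36.3% ± 2.76 (SD, n = 3). SRSF11 stood at 24.1% ± 0.339 against 23.8% ± 1.32, SRSF2 at 22.1% ± 6.29 against 28.5% ± 5.60, SRSF10 at 12.2% ± 3.29 against 15.6% ± 2.80 and SRSF1 at 8.31% ± 3.18 against 10.2% ± 3.71. The SRSF1 share leaves out SRSF1-205, which keeps an intron but is classed as coding. That transcript held 129, 89 and 109 of 298, 199 and 228 counts, against 56, 76 and 46 of 139, 184 and 122. The SRSF1 value therefore depends on this class, and a share with SRSF1-205 among the retained-intron transcripts was not tested. SRSF5 had 5.32% ± 4.64 against 8.91% ± 6.63. The smallest exact permutation p among the 10 genes was 0.2, for SRSF2. Since transcripts of a gene share long stretches (the longest stretch that a retained-intron or NMD transcript shares with a coding one was 19.2% to 88.8% of its length, median 46.7%, over 43 transcripts), these shares rest on how the authors' counting assigned molecules to transcripts.

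**Figure D5:**
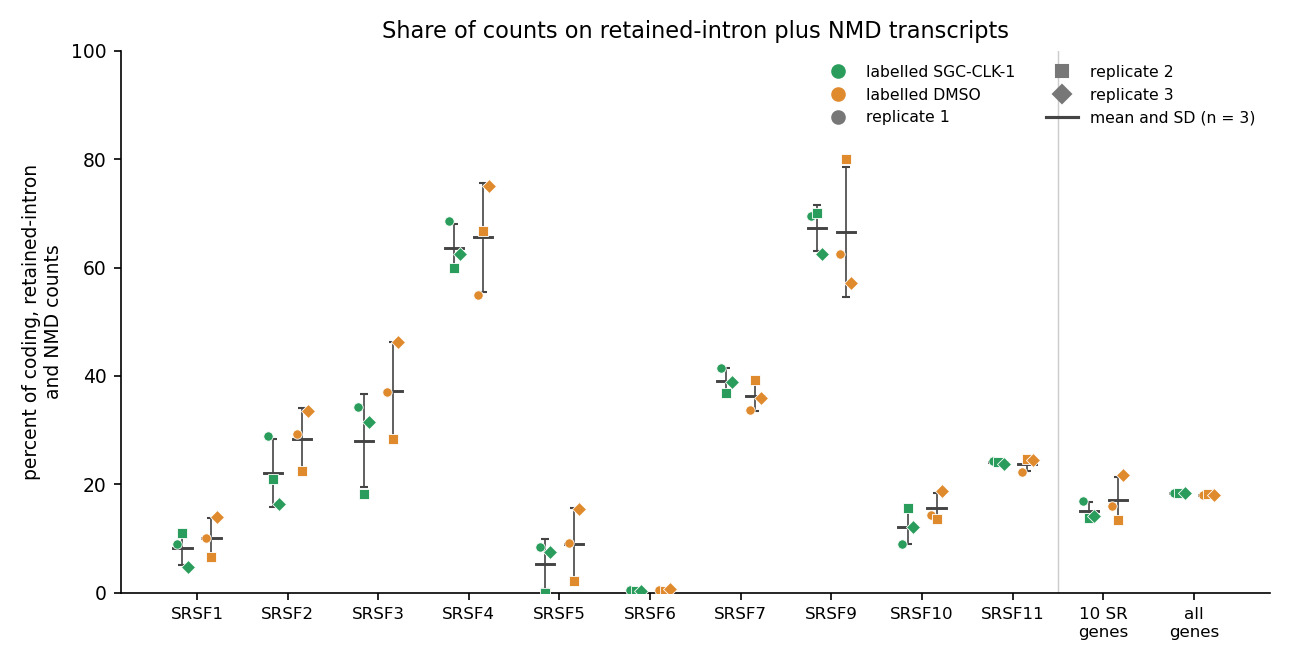
Percent of coding, retained-intron and NMD counts that fell on retained-intron plus NMD transcripts, for each SR gene, the 10 together and all genes, with replicates as points and mean and SD as bars. The groups overlap for each SR gene, and the genes range from under 1% (SRSF6) to above 60% (SRSF4 and SRSF9).

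Around the SR proteins, 23 genes of the pathway were listed: kinases, the nuclear importer, other SR-related proteins and partners at the splice site. Of the 18 that could be tested, 6 were higher and 12 lower in the inhibitor libraries, with a median log2 fold change of -0.54. None passed an adjusted p of 0.05 in edgeR, and 6 had an unadjusted p under 0.05 (beside 13.9% of all genes), of which 5 were lower and 1 higher. CLK1 and LUC7L3 passed under 3 other settings: with DESeq2, in edgeR without the filter on low counts (adjusted p = 0.0077 and 0.039) and in edgeR on the most abundant transcript of each gene only (0.047 and 0.011). In that order these settings called 107 of 6344, 169 of 18776 and 147 of 3688 genes, against 15 of 6344 as reported.

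Among the kinases, CLK1, which phosphorylates SR proteins in the nucleus, had 103, 60.6 and 147 CPM against 185, 248 and 244 CPM, without overlap. Its log2 fold change was -1.20 (standard error 0.29, edgeR adjusted p = 0.087, DESeq2 adjusted p = 0.020). CLK4, its closest relative, had 55.5, 85.4 and 67.0 CPM against 93.7, 109 and 96.5 CPM, a log2 fold change of -0.62 (edgeR adjusted p = 0.35), and its most abundant transcript alone had 0.27. CLK3 had 143 ± 17.9 CPM against 134 ± 19.4, a log2 fold change of 0.019. CLK2, at 5.21 ± 2.38 CPM against 2.87 ± 2.54, was too low to test.

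TNPO3, the importin that carries phosphorylated SR proteins into the nucleus, had 45.0, 143 and 75.1 CPM against 38.4, 42.0 and 48.3 CPM. The log2 fold change of 0.92 (standard error 0.41, edgeR adjusted p = 0.34) dropped to 0.38 without SGC-CLK-1 replicate 2, the highest library. LUC7L3, a protein of the U1 snRNP with an arginine and serine rich tail, had 589, 469 and 534 CPM against 757, 842 and 1024 CPM, a log2 fold change of -0.80 (standard error 0.20, edgeR adjusted p = 0.090, DESeq2 adjusted p = 0.013). TRA2A, an SR-like activator of exon inclusion, had 541, 515 and 517 CPM against 747, 541 and 869 CPM, a log2 fold change of -0.53 (edgeR adjusted p = 0.27). RSRC1, an SR-related protein, had 76.5, 68.9 and 121 CPM against 134, 136 and 126 CPM, a log2 fold change of -0.66 (edgeR adjusted p = 0.30).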

How the data were processed

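Counts were used as the authors deposited them: whole UMI counts per transcript identifier, not normalized, for 6 RM82 libraries. Per the study's methods, bases were called with Guppy, reads were mapped with minimap2 to an Ensembl human transcriptome (hg38), with settings that allow secondary alignments, and UMIs were collapsed with UMI-tools or by homotrimer correction; which of the latter made the files is not given in the sources used here. The submitters' processing notes name minimap2 2.22. Other tables of the series were not used here.

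Identifiers were matched without version number to GENCODE release 44 (86362 of 93530; 91 of the 95 SR transcripts had the same version number, 4 another). Unmatched identifiers stayed in the transcript fit. Counts were fitted with edgeR 4.0.16 (R 4.3.3; quasi-likelihood F-test, TMM, filterByExpr with a minimum count of 10 and a minimum total of 15, Benjamini-Hochberg over all features), as transcripts, gene sums and gene-by-class sums, and with diffSpliceDGE for usage; standard errors were derived from the F statistic. CPM are counts scaled to a common library total, not to length. DESeq2 1.42.0 was an alternative, beside other scalings, filters, a replicate term and single libraries left out. The scripts were tested on simulated counts. The pairwise chi-square per degree of freedom between replicates, on gene sums, was 2.61 to 4.24. A molecule counted on several transcripts would raise this value too, so it cannot be read as spread beyond sampling noise. Transcripts named are the most abundant coding and retained-intron or NMD transcript of each gene and those with an adjusted p under 0.05. Some further SRSF3, SRSF7 and SRSF11 transcripts too low to test are named as well. Partners named are CLK1 to CLK4 and those with an unadjusted p under 0.05. Members, lists and tests were chosen with earlier results of these data known. Sequences and positions are from GENCODE.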

Additional observations from a re-analysis of the deposited data

How the results depend on the processing

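Of the SR transcripts, 6 were called under RLE scaling and with at least 10 counts required in every library, 5 with scaling by library size or with DESeq2, which both lost SRSF3-207, and 0 without a filter on low counts, where all 95 entered the adjustment over 93530 transcripts; leaving out single libraries gave 0 to 7. Over all transcripts RLE scaling called 311 of 7840, library size scaling 295 of 7840 and DESeq2 113 of 7840. Requiring at least 10 counts in every library gave 173 of 4919, and no filter 162 of 93530. For gene sums the count of SR calls, 0 as reported, was 1 without the filter, with DESeq2 and with the most abundant transcript of each gene only (added after the data were seen), each time SRSF11, and 0 to 1 with single libraries left out. Over all genes these settings called 169 of 18776, 107 of 6344 and 147 of 3688, and 1 to 21 genes with single libraries left out. For gene-by-class sums the count of SR calls was 1 without the filter, 2 with DESeq2 and 0 to 1 with single libraries left out. Over all sums it was 150 of 34995, 128 of 6946 and 3 to 41. Usage gave 0 calls with scaling by library size, with at least 10 counts in every library, under the replicate block, with single libraries left out, and with retained-intron or NMD counts alone set against coding; it was not run with RLE scaling, without the filter or with DESeq2. The cause of these changes was not tested.

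The labels do not say whether the replicate numbers pair the libraries. The deviations of same-numbered libraries correlated at 0.059, 0.093 and -0.0018, and those of differently numbered libraries at -0.12 to 0.067. All these values are small, and they do not settle whether the libraries are paired. With a replicate block 8 SR transcripts were called, among them SRSF3-205 (edgeR adjusted p = 0.040). Over all transcripts the block called 427 of 7840, against 310 as reported. No SR gene or class sum was called under the block, beside 36 of 6344 genes and 90 of 6946 class sums. The log2 fold change of SRSF7-204 was then -0.015 and the relative change of SRSF4 noncoding counts -8.02e-04.

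Several values that had not passed the test changed sign. SRSF7-204 was at -0.024 without the filter, the SRSF5 gene sum at 0.00182 with scaling by library size and 0.090 with its most abundant transcript, and CLK4, reported at -0.62, at 0.27 with its most abundant transcript. Leaving out single libraries gave log2 fold changes of -0.060 to 0.49 for the SRSF2 gene sum, -0.21 to 0.23 for SRSF4, -0.55 to 0.18 for SRSF5, -0.056 to 0.25 for SRSF7, -0.51 to 0.47 for SRSF9, -0.082 to 0.10 for SRSF10 and -0.095 to 0.16 for CLK3. For transcripts the ranges were -0.30 to 0.44 for SRSF2-206, -0.30 to 0.36 for SRSF5-203, -0.089 to 0.17 for SRSF7-204, -0.054 to 0.31 for SRSF7-201, -0.46 to 0.11 for SRSF10-213 and -0.12 to 0.19 for SRSF4-207. Other values kept their sign but moved by over 1.5 times when a library was left out: SRSF2-203 was at 0.36 without DMSO replicate 2, SRSF3-202 at -0.098 without DMSO replicate 2, TRA2A at -0.35 without DMSO replicate 3, and SRSF10-214 ranged from 0.11 to 0.48. The relative change of retained-intron plus NMD counts ranged from -0.077 to 0.060 for SRSF4, -0.39 to 0.00341 for SRSF1, -0.012 to 0.036 for SRSF11, -0.43 (without SGC-CLK-1 replicate 1) to -0.086 (without DMSO replicate 3) for SRSF2, -0.39 (without SGC-CLK-1 replicate 2) to -0.13 (without SGC-CLK-1 replicate 1) for SRSF10 and 0.052 (without DMSO replicate 1) to 0.13 for SRSF7. Between 362826 and 666702 counts per library limit all values of SRSF9, SRSF5 and the 66 transcripts not tested.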
